A study of Mus musculus with 8 samples.

Results

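The 8 genes described here encode transcription factors and cofactors of the muscle progenitor network: the paired-box factors Pax3 and Pax7, the homeodomain factor Six4, the coactivators Eya1, Eya2 and Eya4, and the corepressors Dach1 and Dach2. They were chosen by name. Every probe that the array platform assigns to 1 of these symbols was taken, which gave 20 probes for the 8 genes, out of 45281 probes and 21946 named genes on the array. For each gene the probe with the largest standard deviation (SD) over all 8 arrays leads the description, and the other probes follow it. Pax3 and Pax7 had 1 probe each.

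RNA came from mouse skeletal myoblasts in 4 groups of 2 biological replicates: cells with an siRNA against G9a (siG9a) at day 1, cells with a scrambled control siRNA at day 1, siG9a cells at day 0 and control cells at day 0. G9a is a histone H3 lysine 9 methyltransferase encoded by Ehmt2. The labels give neither the origin of the myoblasts nor the event from which the days were counted. Each sample was hybridised to 1 Illumina WG-6 v2.0 array.

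In the embryo and in the muscle stem cells of the adult, Pax3 and Pax7 mark cells that can still become muscle, and they act upstream of the myogenic bHLH factors Myf5 and MyoD. Six-family homeodomain proteins bind DNA at MEF3 sites in muscle promoters such as that of myogenin, and Eya proteins, which are recruited by Six-family proteins, activate transcription and also carry a phosphatase domain. Dach proteins are relatives of Ski and, with Six-family and Eya proteins, can turn the same promoters off.

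The values are the authors' processed ones, logarithms taken here as log2 and scaled so that each probe has a zero of its own. That zero need not lie in the middle of a probe's range: 32.9% of probes had a median of 0 over the 8 arrays. The values show how a probe differed between arrays but not how much transcript there was, and levels cannot be compared between genes or probes. Whether a probe was above background is unknown here, so a flat profile cannot be told apart from a transcript that was not detected. For the same reason the presence of myoblast markers such as Myod1 and Des could not be checked. In bulk RNA, fewer cells of a type and less RNA per cell cannot be told apart. Differences are given ± SE (the moderated standard error of limma, n = 2 arrays per group), and a gene counted as called where its p, adjusted by Benjamini and Hochberg over the 31443 features (1 probe per named gene plus unnamed probes), was under 0.05. The blocked fit adds the replicate number to the same model. The number of arrays limits the precision.

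The replicates differed on all arrays. Array medians were between -0.146 and -0.049 in replicate 1 and between 0.034 and 0.108 in replicate 2, and 76.8% of all features were higher in replicate 2, with a median difference of 0.181. The siRNA's target was lower at both days: Ehmt2 read -0.95 and -0.31 in siG9a cells and 0.77 and 0.66 in control cells at day 1, and -0.82 and -0.69 in siG9a cells and 1.23 and 0.59 in control cells at day 0 (replicate 1 first and replicate 2 second, here and throughout). The differences were -1.34 ± 0.27 and -1.67 ± 0.27, which limma did not call over all features (adjusted p = 1 at both days). Averaged over the days the difference was -1.50, lower in siG9a cells in 4 of 4 pairs, and it was called from differences within replicate pairs (adjusted p = 1.11e-06) but not in the unblocked fit (adjusted p = 1) or the blocked one (0.164). The paired fit drew the Ehmt2 variance to 0.0577, against 0.23 among its own 4 pairs, with 16.9 prior and 3 residual degrees of freedom. It treated the 4 pairs as independent, although each replicate gave a pair at both days. The pairs differed by replicate, with -1.72 at day 1 and -2.05 at day 0 in replicate 1 and -0.96 and -1.28 in replicate 2. With the 3 Ehmt2 probes averaged the differences were -0.94 at day 1 and -1.18 at day 0.

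Among the 8 genes, only Eya1 was called between the days, in a comparison where 4.26% of all features were called. The call rests on its lead probe and depended on single arrays, as described below. On its lead probe, Eya1 was lower at day 1 than at day 0 in siG9a and in control cells and in both replicates, by -0.84 ± 0.17 on average. The lead probes of the remaining 7 genes stayed between -0.331 and 0.384 on every array. No gene of the 8 was called between siG9a and control cells at either day, where 0% of all features were called. The plot of the lead probes on the 8 arrays shows this contrast.

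**Figure D1:**
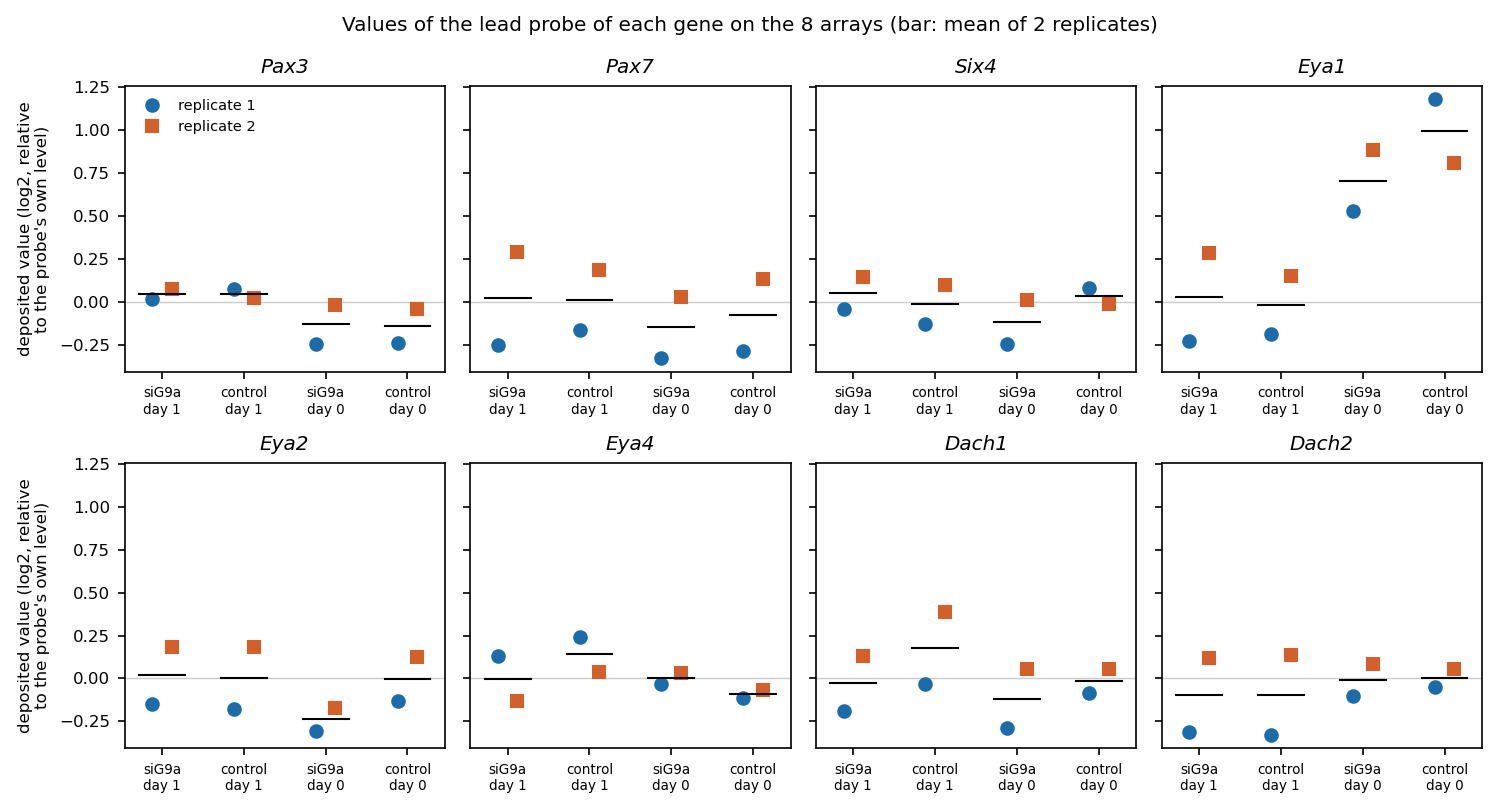
Deposited value (log2, relative to the probe's own level) of the lead probe of each gene in the 4 groups, with circles for replicate 1, squares for replicate 2 and a bar at the mean of both. Eya1 sits between 0.53 and 1.18 at day 0 and between -0.23 and 0.29 at day 1, while the other genes stay within -0.331 and 0.384 and in Pax7, Eya2, Dach1 and Dach2 the squares lie above the circles in all 4 groups.

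Eya1, a coactivator that works with Six-family proteins in muscle and is needed for ear and kidney formation, was the gene with the widest spread. Its lead probe, ILMN_2430513, had an SD of 0.511 over the 8 arrays, and 6.49% of all features had one as large. The probe leads because of this SD, so its spread and its change between the days are not independent of the choice. It read -0.23 and 0.29 in siG9a cells at day 1, -0.18 and 0.15 in control cells at day 1, 0.53 and 0.88 in siG9a cells at day 0, and 1.18 and 0.81 in control cells at day 0. All 4 day 0 arrays were above all 4 day 1 arrays. How many of all features separated the days in this way was not counted, so the separation cannot be called particular to Eya1. In order of group means, siG9a at day 1 (0.03) and control at day 1 (-0.02) lay together at the bottom, and siG9a at day 0 (0.70) and control at day 0 (0.99) lay together at the top. Within each of these neighbouring pairs the siG9a and control arrays overlapped.

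The fall of Eya1 averaged over siG9a and control cells was -0.84 ± 0.17 (95% interval -1.24 to -0.45), which on base 2 leaves 55.7% of the day 0 level. Limma called it (adjusted p = 0.0303), and the blocked fit gave an adjusted p of 0.00228. In this comparison 4.26% of all features were called, 2.76% of features as lower (15.2% and 8.64% in the blocked fit), so that Eya1 as 1 called gene of 8 cannot be read as a property of the gene family. Of all features, 2.16% fell as far as Eya1 or farther. Within treatments the change was -0.67 ± 0.24 in siG9a cells (-0.75 and -0.59 in the replicates) and -1.01 ± 0.24 in control cells (-1.37 and -0.66). Neither was called without the block (adjusted p = 0.432 and 0.119, with 0.906% and 1.12% of features called). With the replicate block the change in control cells passed (adjusted p = 0.0096, where 8.83% of features were called, 4.97% as lower) and the change in siG9a cells did not (adjusted p = 0.0615, where 8.98% were called). The difference between these day effects was 0.34 ± 0.35 (adjusted p = 1), so they were not shown to differ.

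Eya1 has 3 other probes, all assigned to the same transcript record as the lead probe, and they did not show a fall of that size. ILMN_2686435 read -0.43 and 0.19 in siG9a and -0.16 and 0.11 in control cells at day 1, against -0.04 and 0.38 in siG9a and 0.16 and 0.31 in control cells at day 0. It was lower at day 1 in all 4 replicate pairs, by -0.27 ± 0.17 on average. The probe ILMN_2638487 was also lower in all 4 pairs, by -0.16 ± 0.19, and ILMN_2444322 was higher in all 4, by 0.18 ± 0.10. None of these 3 probes was called when every probe was tested (adjusted p between 0.66 and 0.983). With all 4 probes averaged, the Eya1 difference was -0.27 and its call was lost (adjusted p = 0.554). The call therefore rests on 1 probe of 4, the one chosen for the largest SD over these same arrays. Which probe follows the Eya1 transcript was not tested. The plot of the 4 Eya1 probes sets them side by side.

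**Figure D2:**
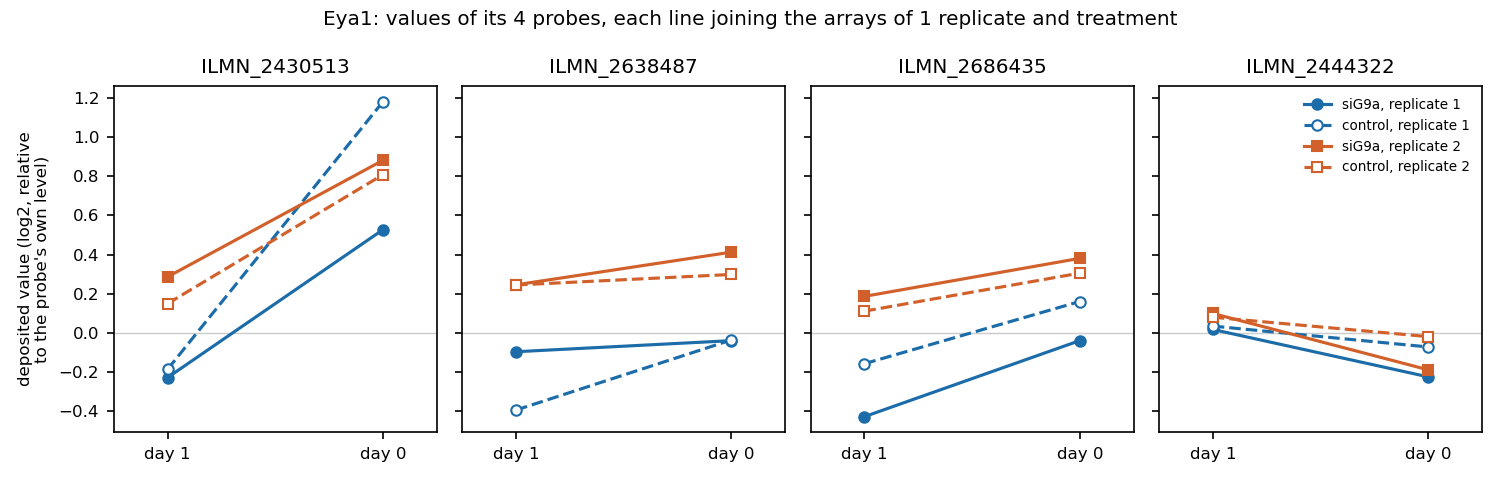
Deposited values (log2, relative to the probe's own level) of the 4 Eya1 probes at day 1 and day 0, with filled points and solid lines for siG9a, open points and dashed lines for control, and each line joining the arrays of 1 replicate. The lead probe on the left is higher at day 0 on every line, by 0.59 to 1.37 units in size, the middle probes less so, and the probe on the right is lower at day 0 on every line.

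The Eya1 call also depended on single arrays. It held in 4 of the 8 fits that left out an array. It was lost without control day 0 replicate 1 (-0.75, adjusted p = 0.105), without control day 1 replicate 1 (-0.76, adjusted p = 0.0839), without siG9a day 1 replicate 1 (-0.71, adjusted p = 0.0873) and without siG9a day 0 replicate 2 (-0.75, adjusted p = 0.111). The direction was the same in all 8. Centring each array on its median gave -0.89.

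The named genes whose values ran most like those of Eya1 over the 8 arrays were Slc6a17, a neuronal amino acid transporter (Pearson r = 0.98), Efhd1, a mitochondrial calcium-binding protein (r = 0.975), and A230057G18Rik (r = 0.975). They were picked as the highest of all named genes, and the 8 arrays share the difference between the days and that between the replicates, so these coefficients are descriptions. The 3 genes differed between the days by -0.46 ± 0.13, -0.44 ± 0.12 and -0.35 ± 0.13, and none was called (adjusted p = 0.0982, 0.0843 and 0.266).

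The Pax genes stand at the top of the network. Pax7, the factor that maintains the adult muscle stem cell, read -0.25 and 0.29 in siG9a cells at day 1, -0.17 and 0.19 in control cells at day 1, -0.33 and 0.03 in siG9a cells at day 0, and -0.29 and 0.13 in control cells at day 0. In all 4 groups replicate 2 was the higher, by 0.42 on average, against 0.181 for the median feature, and siG9a and control arrays overlapped at each day. The siG9a minus control difference of Pax7 was 0.01 ± 0.25 at day 1 and -0.07 ± 0.25 at day 0, with 95% intervals of -0.22 to 0.24 and -0.30 to 0.16 in the blocked fit. Between the days it differed by 0.13 ± 0.18 (adjusted p = 1), higher at day 1 in 4 of 4 pairs.

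Pax3, which directs the migrating muscle precursors of the embryo, read 0.02 and 0.08 in siG9a cells at day 1, 0.07 and 0.02 in control cells at day 1, -0.24 and -0.02 in siG9a cells at day 0, and -0.24 and -0.04 in control cells at day 0. All 4 day 1 arrays were above all 4 day 0 arrays, by a small margin (lowest 0.0151 against highest -0.0151). The share of all features that separated the days like Pax3 was not counted, so the separation cannot be called unusual. The difference between the days was 0.18 ± 0.12 and was not called (adjusted p = 0.809, and 0.18 in the blocked fit, 95% interval 0.0047 to 0.36 there). Centring the arrays on their medians reduced it to 0.13. The siG9a minus control difference was -0.0016 ± 0.17 at day 1 and 0.01 ± 0.17 at day 0. The Pax3 SD of 0.127 was a low one, since 84.3% of features varied as much or more.

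Six4 is the DNA-binding partner in this set, a MEF3-binding factor of muscle promoters. Its lead probe, ILMN_2434136, read -0.04 and 0.14 in siG9a cells at day 1, -0.13 and 0.10 in control cells at day 1, -0.25 and 0.01 in siG9a cells at day 0, and 0.08 and -0.01 in control cells at day 0. The lowest of these was siG9a day 0 replicate 1, and the siG9a and control arrays overlapped at both days. The siG9a minus control difference at day 0 was -0.33 in replicate 1 and 0.02 in replicate 2, -0.15 ± 0.18 together. At day 1 it was 0.07 ± 0.18. The other Six4 probe, ILMN_1219845, was lowest on the same array, with -0.16 and -0.02 in siG9a cells at day 0 against 0.20 and 0.05 in control cells. Neither probe was called in any of the 7 comparisons.

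Eya2, another coactivator of Six-family proteins, read -0.15 and 0.18 in siG9a cells at day 1, -0.18 and 0.18 in control cells at day 1, -0.30 and -0.17 in siG9a cells at day 0, and -0.13 and 0.12 in control cells at day 0. At day 0 both siG9a arrays lay below both control arrays, as in 11.3% of all features. The difference there was -0.23 ± 0.20, with a 95% interval of -0.47 to 0.0036 in the blocked fit (unadjusted p = 0.0529, adjusted p = 0.896), and at day 1 it was 0.02 ± 0.20. On the second Eya2 probe, ILMN_1253486, the siG9a day 0 arrays read -0.16 and 0.12 against 0.01 and 0.09 in control cells, which overlap.

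Eya4, a coactivator known for roles in the inner ear and the heart, read 0.13 and -0.13 in siG9a cells at day 1, 0.24 and 0.04 in control cells at day 1, -0.03 and 0.03 in siG9a cells at day 0, and -0.11 and -0.07 in control cells at day 0. At day 0 both siG9a arrays were above both control arrays, as in 5.54% of all features, and at day 1 the groups overlapped. Eya4 had the only lead probe whose replicate 2 mean lay below its replicate 1 mean. The siG9a minus control difference was -0.14 ± 0.17 at day 1 and 0.09 ± 0.17 at day 0. On its second probe, ILMN_2547781, the siG9a arrays at day 0 read -0.05 and -0.02 against -0.15 and -0.03 in control cells, which overlap.

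The Dach genes encode the corepressors. Dach1 read -0.19 and 0.13 in siG9a cells at day 1, -0.03 and 0.38 in control cells at day 1, -0.29 and 0.05 in siG9a cells at day 0, and -0.09 and 0.05 in control cells at day 0. Replicate 2 was above replicate 1 in all 4 groups, by 0.30 on average. The siG9a minus control difference was -0.20 ± 0.22 at day 1, lower in both replicates, and -0.10 ± 0.22 at day 0. Averaged over the days it was -0.15 ± 0.15, with the smallest p of the 8 genes in that comparison (0.345, and 0.0757 in the blocked fit, both unadjusted). The siG9a and control arrays overlapped at both days. With the 4 other Dach1 probes included, the direction at day 1 changed: averaged over all 5 probes the difference there turned to 0.04. Averaged over the days, the other probes singly gave -0.10, -0.0075, 0.05 and 0.09, the last higher in siG9a cells in 4 of 4 pairs. None was called when every probe was tested.

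Dach2, which in mouse muscle holds back myogenin while the nerve is intact, read -0.31 and 0.12 in siG9a cells at day 1, -0.33 and 0.14 in control cells at day 1, -0.10 and 0.08 in siG9a cells at day 0, and -0.05 and 0.05 in control cells at day 0. Replicate 2 was the higher in all 4 groups, by 0.30 on average, and siG9a and control arrays overlapped at both days. The siG9a minus control difference was 0.0016 ± 0.22 at day 1 and -0.01 ± 0.22 at day 0, and the change between the days was -0.09 ± 0.16. With all 3 Dach2 probes averaged, that last difference turned to 0.04. On the other Dach2 probes the siG9a minus control difference was 0.12 and 0.07 at day 1 and -0.09 and -0.11 at day 0.

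Across the set, the comparison of siG9a with control cells asked whether lowering G9a shifts the progenitor factors. The lead-probe differences ranged between -0.20 and 0.07 at day 1 and between -0.29 and 0.09 at day 0, with medians over the 8 genes of 0.01 and -0.09 (all features: 0.024 and -0.036). Limma called 0 of the 8 genes at each day, as it called 0% of all features at day 1, at day 0 and over both days. At an unadjusted p under 0.05, 54 of 31443 features passed at day 1 and 123 at day 0, 1195 and 1728 in the blocked fit, and none of the 8 genes passed in either fit. Over all 20 probes, the siG9a minus control difference averaged over the days was between -0.152 and 0.102. The 95% intervals of the 8 genes in the blocked fit reached from -0.45 to 0.47 at day 1 and from -0.72 to 0.36 at day 0, and without the block from -0.70 to 0.61 and from -0.85 to 0.51.

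**Figure D3:**
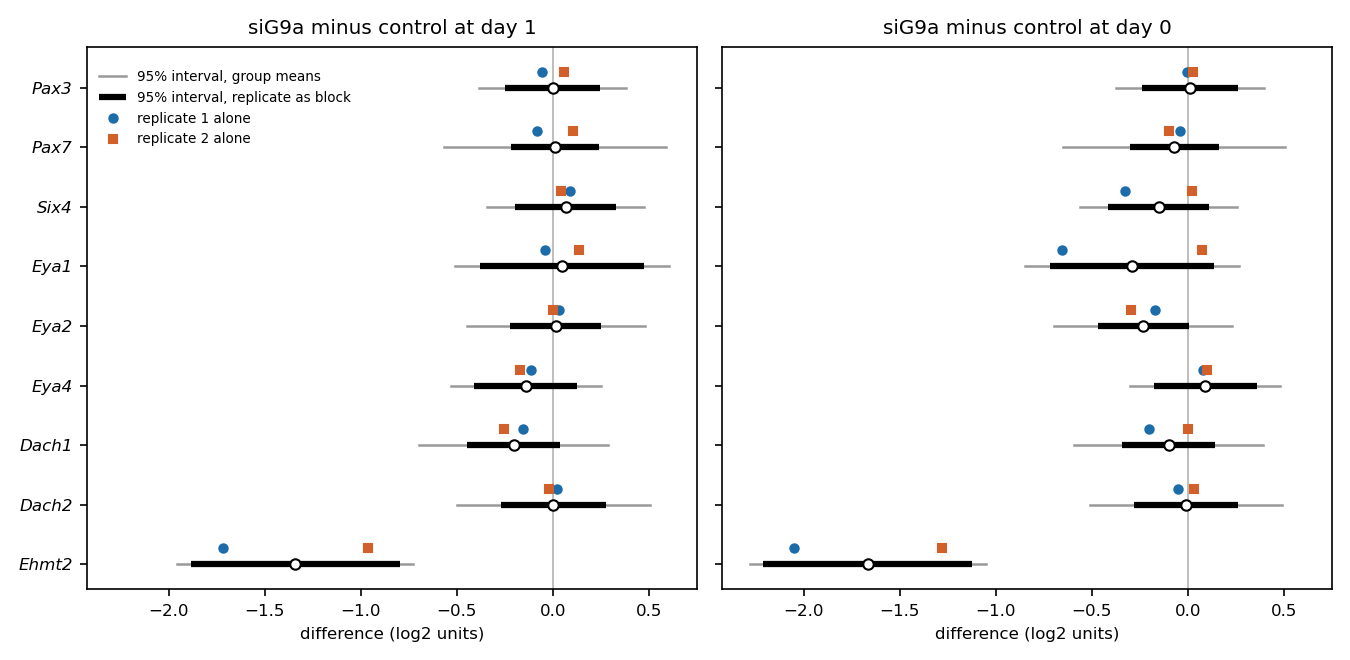
Difference between siG9a and control cells (log2 units) of the lead probe of each gene and of Ehmt2, at day 1 on the left and day 0 on the right; open circles are the differences of group means, thin and thick lines the 95% intervals without and with the replicate block, and small points the replicates alone. All 8 genes have intervals that reach 0 or cross it, while Ehmt2 stands at -1.34 and -1.67.

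The siG9a effect did not differ detectably between the days for any of the 8 genes. The difference between the siG9a effects of day 1 and day 0 ran from -0.23 ± 0.24 in Eya4 to 0.34 ± 0.35 in Eya1. Limma called none of the 8, 0% of all features were called in that comparison, and none of the 8 had an unadjusted p under 0.05 in either fit.

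The replicates also differed across the set. On 7 of the 8 lead probes and on 18 of the 20 probes the replicate 2 mean was above the replicate 1 mean, as in 76.8% of all features. Pax7 (0.42), Dach1 (0.30), Dach2 (0.30) and Eya2 (0.27) exceeded the median feature on their lead probes, and Eya1 (0.21) was close to it. For the 7 genes other than Eya1, SDs over the 8 arrays were between 0.127 and 0.238, around the 0.185 of the median feature. Their 16 probes changed between the days by -0.092 to 0.18, with 13 of them higher at day 1 and none called. The median feature was also higher at day 1, by 0.053, and 1833 of 45281 probes were called when every probe was tested.

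Genes that work with these factors were taken from 4 lists. Of 14 measured relatives (other Pax and Six-family genes, Eya3, Ski and Skil), none was called between the days, where 4.26% of all features were called. None was called between siG9a and control cells, where 0% of all features were called. Between the days the relatives ranged between -0.231 and 0.237, with a median of 0.034 against 0.053 for all features. Pax8 (0.21 ± 0.15), Skil (-0.23 ± 0.19), Six3 (0.17 ± 0.15) and Pax6 (0.18 ± 0.16) had the smallest p.

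Of 14 targets and downstream myogenic genes, all measured, 3 fell and 2 rose between the days, with 4.26% of all features called, and 3 fell and 4 rose in the blocked fit, with 15.2% called. Id3, an inhibitor of myogenic bHLH factors and a Pax7 target, fell by 2.27 ± 0.14 (adjusted p = 0.00039). Id2, of the same family, fell by 1.79 ± 0.30 (adjusted p = 0.0125, lost after median centring with 0.0652, and -0.62 on its other probe), and cyclin D1 (Ccnd1) fell by 2.28 ± 0.19 (adjusted p = 0.00115). Slc12a2, an ion cotransporter and a Six-family target, rose by 1.89 ± 0.26 (adjusted p = 0.00555), although its other 4 probes gave between -0.03 and 1.67. Myogenin (Myog), named after its values were seen, rose by 3.60 ± 0.76 (adjusted p = 0.0341). That call was lost after median centring (adjusted p = 0.125), under robust moderation (0.227) and in 5 of the 8 fits without an array: those without siG9a or control day 1 replicate 1, siG9a or control day 0 replicate 2, or siG9a day 1 replicate 2. Over all 8 of these fits the difference was between 2.75 and 4.45. The genes gained with the block, also named after their values were seen, were Myod1, a myogenic bHLH factor (1.18 ± 0.55, adjusted p = 0.479, blocked 0.00216), and Aldoa, the muscle form of aldolase (0.52 ± 0.16, adjusted p = 0.138, blocked 0.0275), both higher in 4 of 4 pairs. Myf5, a direct target of Pax3 and Pax7, stood at -0.10 ± 0.12 and Met, the receptor that Pax3 controls in migrating precursors, at -0.25 ± 0.17, neither called.

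Of 10 cofactors and chromatin partners, all measured, none was called between the days, where 4.26% of all features were called. In the blocked fit, which called 15.2% of all features, 4 of them were called. These were Sin3a, a scaffold of histone deacetylase complexes that bind Dach and Ski proteins (-0.45 ± 0.11, blocked adjusted p = 0.00197), Carm1, an arginine methyltransferase that modifies Pax7 (-0.35 ± 0.13, 0.0147), Hdac3 (-0.32 ± 0.12, 0.041) and the Six-binding protein gene Sobp (0.46 ± 0.12, 0.0045). The other probe of Sin3a stood at 0.0079 and that of Hdac3 at 0.0153, and the other 4 probes of Sobp were between -0.09 and 0.38.

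Of 15 satellite cell markers, 14 were measured, and 1 rose and 1 fell between the days, which is 14.3% of the list, with 4.26% of all features called. In the blocked fit 7 rose and 1 fell, which is 57.1% of the list, with 15.2% of all features called. Syne1, a nuclear envelope protein, rose by 0.99 ± 0.17 (adjusted p = 0.0134), but its call was lost with all its probes averaged (0.24, adjusted p = 0.578). Syndecan-3 (Sdc3) fell by 1.03 ± 0.22 (adjusted p = 0.0382), a call lost without control day 1 replicate 1, siG9a day 1 replicate 1, control day 0 replicate 2 or siG9a day 0 replicate 2, with differences between -1.22 and -0.85 over all fits without an array. The adhesion molecules Ncam1 (1.94 ± 0.46) and M-cadherin (Cdh15, 1.77 ± 0.44) were not called (adjusted p = 0.0563 and 0.0685), but passed in the blocked fit (adjusted p = 2.5e-06 and 2.3e-05), and the other 2 Ncam1 probes gave 0.18 and 1.22. The remaining genes gained with the block, named after their values were seen, were Itga7 (1.30 ± 0.48), Heyl (1.34 ± 0.34), Calcr (0.31 ± 0.13) and Megf10 (0.44 ± 0.32), with blocked adjusted p between 4.32e-05 and 0.0259. Of the 52 different genes measured on the 4 lists, 0 were called between siG9a and control cells in either fit, as were 0% of all features. These fits did not call Ehmt2 either, so the count does not show that the lists were unchanged. Averaged over the days, the targets ran from -0.597 in Ccnd1 (-0.44 and -0.49 on its other probes) to 0.343 in Myog. The plot of the change between the days sets the lists against the 8 genes.

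**Figure D4:**
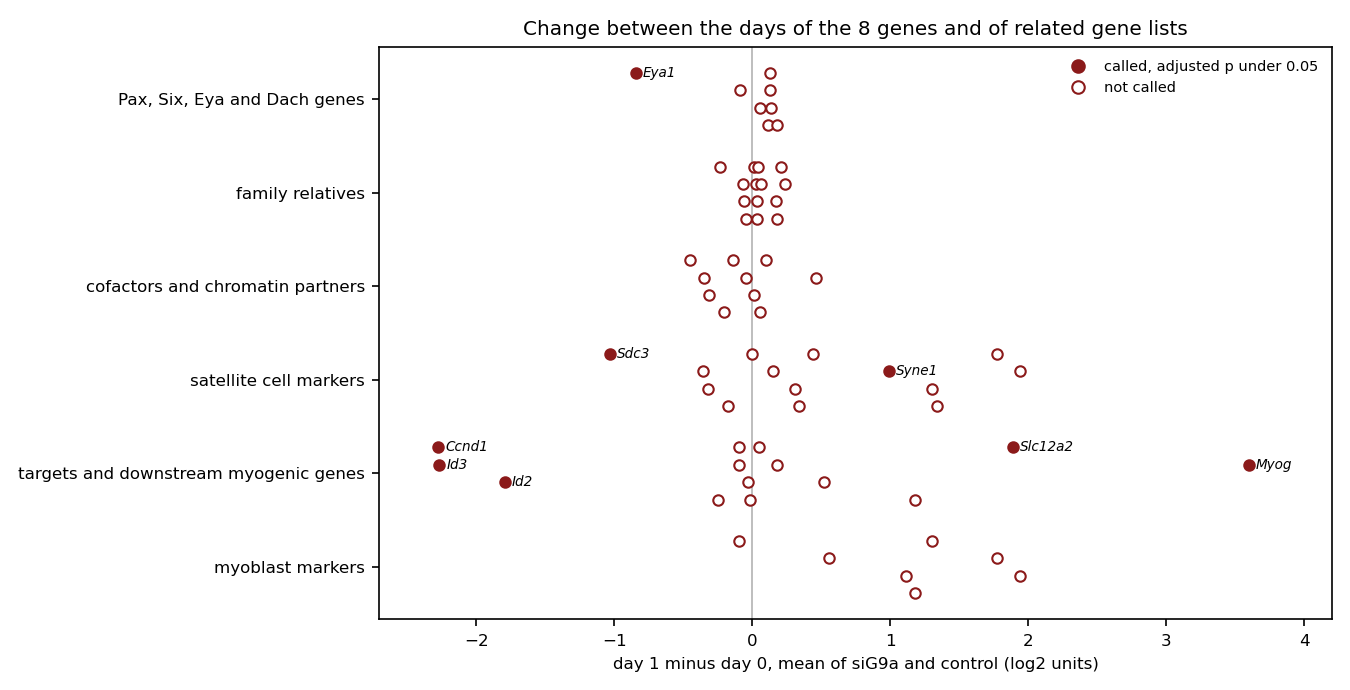
Day 1 minus day 0 difference, averaged over siG9a and control cells (log2 units), of the 8 genes, of 4 lists of related genes and of myoblast markers, with 1 point per gene and filled, named points for genes called at an adjusted p under 0.05. Eya1 is the named point among the 8 genes at -0.84, the relatives lie between -0.231 and 0.237, and the targets spread between -2.28 and 3.60.

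Markers of cell identity moved between the days as well. Of 7 myoblast markers, 6 rose at day 1 in the blocked fit, Cdh15 and Ncam1 among them, and none was called without the block. Of all features, 15.2% were called in the blocked fit and 4.26% without the block. The mean over the myoblast list at day 1 was 0.591 and -0.268 in siG9a cells and 0.639 and -0.29 in control cells. At day 0 it was -0.2 and -1.395 in siG9a cells and -0.519 and -1.652 in control cells. Replicate 2 was thus the lower in every group. Of 6 fibroblast markers, 3 were called in the blocked fit, 2 as higher at day 1 and 1 as lower. Their list mean at day 1 was -0.412 and 1.314 in siG9a cells and -0.224 and 1.314 in control cells. At day 0 it was -0.654 and 0.366 in siG9a cells and -0.736 and 0.324 in control cells. Here replicate 2 was the higher in every group, the reverse of the myoblast list. Endothelial (5 genes), macrophage (5) and glial or neural crest markers (3), the last relevant because Pax3 is also a neural crest gene, had none called in either fit. Of 5 adipocyte markers, 1 was called in the blocked fit, as lower at day 1. Which of these markers were above background is unknown here. The part of these shifts in the Eya1 difference was not tested.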

How the data were processed

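The deposited values are log2 values by assumption: the authors' processed table holds logarithms relative to each probe's own level, and neither the base nor the software, background correction and normalization are given in the sources used here. The widest range within a probe was 6.88 units. A second deposited table, with 8 signal columns that match no sample by name, was not used here. Detection filters, background corrections and an intensity trend were therefore not run.

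Probes were named from the platform's gene table, updated through Entrez ID (28620 probes) or accession (2637) to the RefSeq table of GRCm38.p6. The probe with the largest SD was kept for each named gene. Limma 3.58.1 under R 4.3.3 fitted 4 group means over 8 arrays (4 residual and 4.59 prior degrees of freedom) and 7 contrasts. The fit was tested on simulated data for the contrast between the days only. The simulated noise was independent between arrays and held no replicate difference, so the test does not cover that feature of these data. Replicate deviations correlated between groups across features with r between 0.613 and 0.865, so the blocked fit (3 residual degrees of freedom) is given beside results that it changes. An exact permutation test of 2 against 2 arrays cannot pass 0.05 and was not used. Genes named by rule were the 8 members, Ehmt2, up to 4 per list with the smallest p between the days, and the 3 most correlated genes. Outside this rule, Myog, Myod1, Aldoa, Itga7, Heyl, Calcr and Megf10 were named after their values were seen. Myf5 and Met were also named outside it. The members, lists and contrasts were chosen with earlier results of these data known.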

Additional observations from a re-analysis of the deposited data

Results flagged for a closer look

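In Eya2 and in Eya4 the siG9a effect had opposite signs at the 2 days in both replicate pairs on the lead probe, as in 15.5% of all features. Eya4 was lower in siG9a cells at day 1 (-0.11 and -0.17 in the replicates) and higher at day 0 (0.08 and 0.10), a difference between the effects of -0.23 ± 0.24 (adjusted p = 1 in limma). Eya2 was higher at day 1 (0.03 and 0.0013) and lower at day 0 (-0.17 and -0.29), a difference of 0.25 ± 0.29 (adjusted p = 1). After median centring the Eya2 difference at day 1 turned to -0.02. The second Eya2 probe, ILMN_1253486, did not share the pattern, with -0.0003 and 0.29 at day 1 and -0.18 and 0.02 at day 0, and the second Eya4 probe, ILMN_2547781, did, with -0.13 and -0.04 at day 1 and 0.10 and 0.0058 at day 0.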

How the results depend on the processing

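The counts of features called between the days changed with the treatment of replicates, with centring and with single arrays. For the mean of siG9a and control cells, 1341 features were called, 4775 with the replicate block, 4581 from differences within replicate pairs and between 794 and 1233 without an array. In siG9a cells 285 were called, 2825 with the replicate block, 154 after median centring and between 4 and 363 without an array. In control cells 353 were called, 2775 with the replicate block, 83 after centring and between 7 and 363 without an array. Centring also moved the share of higher calls, to 22.3% against 35.3% for the mean and to 13.6% against 25.3% in siG9a cells, while in control cells it was 36.1% against 32.3%. Between siG9a and control cells over both days, 256 features were called from differences within pairs and 0 otherwise, and 0 of the 8 genes under every setting run. The fits of differences within pairs treated several pairs from the same replicate as independent. Of the 8 genes, 1 (Eya1) was called between the days on average, 0 with all probes of a gene averaged and 0 to 1 without an array, and 1 was called in control cells with the replicate block. No other call among the 8 genes changed. Of 744 differences of the 8 genes under alternatives, 85 changed sign, 72 of them without an array, 7 after centring and 6 with probes averaged. All were of differences called in neither setting, 3 of them siG9a effects of Eya1. The causes were not tested. Signal over background is unknown here.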
